A study of Mus musculus with 11 samples.

Results

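The genes described here encode 10 ubiquitin ligase subunits and ligases of striated muscle, namely Asb2, Asb10, Asb11, Asb14, Asb15, Asb18, Fbxo32, Trim63, Trim54 and Trim55, out of 50600 rows of the count table. Asb15 was chosen by its low counts in the banded hearts at postnatal day 7, and the other 9 genes were listed by name beside it. All 10 rows were found, all 10 passed the filter on low counts, and the smallest count of any of them was 98 reads, so no member was below detection.

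Hearts came from C57BL/6 wild type mice (C57Bl/6J in the study's methods) operated on P0, the day of birth, by pulmonary artery banding (PAB), which narrows the outflow of the right ventricle with a ligature, or by a sham operation that left out the ligature. All pups, sham included, went through hypothermic anaesthesia and thoracotomy. RNA was taken 3 or 7 days later, which gave 3 sham and 3 PAB libraries at P3 and 3 sham and 2 PAB libraries at P7. The study's methods speak of ventricles and the sample labels of heart, with no separation of the banded right from the unbanded left side, so each value is an average over chambers. Nothing in the labels says that libraries of a group came from separate animals, so the p-values measure the spread between these libraries.

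Ubiquitin ligases attach ubiquitin to chosen proteins and so mark most of them for the proteasome. Asb proteins carry ankyrin repeats, which bind the substrate, and a SOCS box, which joins them through elongins to the Cul5 scaffold. Fbxo32 (atrogin-1) is the F-box subunit of a Cul1 ligase, and Trim63, Trim55 and Trim54 (the MuRF proteins) are RING ligases of the sarcomere. Fbxo32 and Trim63 are the classical atrophy-linked ligases of skeletal and heart muscle and targets of FoxO transcription factors.

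Promoters of 8 of the 10 genes were found in RefSeq (GRCm38.p6), each from 250 bases before to 50 bases after the start. The promoters of Fbxo32 and Trim55 were missing, so no motif was searched in them. Those of Asb15 and Asb14 are shown as the Asb genes among the members whose PAB libraries all lay below the sham libraries at P7, and that of Asb18 because it too held a MEF2 motif while its groups overlapped. Gene positions below are those of GENCODE M21 on GRCm38. Capitals mark the E-box letters CANNTG and matches to the MEF2 motif, both motifs of muscle gene promoters, with overlapping matches run together. The windows are chr6:24527894-24528193 on the plus strand for Asb15, chr14:26894364-26894663 on the plus strand for Asb14 and chr1:90014617-90014916 on the minus strand for Asb18.
Asb15: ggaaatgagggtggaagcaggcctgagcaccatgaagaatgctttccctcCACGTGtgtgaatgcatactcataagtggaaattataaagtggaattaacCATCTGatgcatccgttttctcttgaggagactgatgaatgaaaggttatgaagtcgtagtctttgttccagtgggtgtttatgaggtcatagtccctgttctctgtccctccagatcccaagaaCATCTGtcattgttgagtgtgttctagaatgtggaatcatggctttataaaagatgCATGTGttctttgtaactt
Asb14: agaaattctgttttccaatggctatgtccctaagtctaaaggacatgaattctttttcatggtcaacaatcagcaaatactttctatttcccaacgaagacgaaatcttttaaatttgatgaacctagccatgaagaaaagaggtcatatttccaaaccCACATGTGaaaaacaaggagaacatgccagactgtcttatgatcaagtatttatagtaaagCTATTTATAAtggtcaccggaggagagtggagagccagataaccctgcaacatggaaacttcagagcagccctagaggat
Asb18: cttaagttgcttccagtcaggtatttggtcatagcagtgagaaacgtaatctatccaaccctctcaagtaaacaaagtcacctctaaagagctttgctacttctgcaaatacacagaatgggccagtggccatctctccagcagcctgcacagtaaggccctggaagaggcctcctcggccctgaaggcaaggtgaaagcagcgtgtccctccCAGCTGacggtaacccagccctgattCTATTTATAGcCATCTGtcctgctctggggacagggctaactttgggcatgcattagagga

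Motifs were searched on both strands. At least 1 E-box stood in the windows of all 8 genes, and in 72.3% of all 32851 promoters. The MEF2 motif was found for Asb14 and Asb18 and in 3.19% of all promoters. It was not found in the Asb15 window, where 4 E-boxes stood. The FoxO letters GTAAACA occurred for Asb18 and Trim63 (3.65% of all promoters), the TATA letters TATAAA for Asb14, Asb15, Asb18 and Trim63 (13.6%) and the glucocorticoid half-site TGTTCT for Asb14, Asb15, Trim54 and Trim63 (19%). The letters CATTCC of the MCAT motif occurred for Asb10, Trim54 and Trim63 (14.7%), the GATA letters AGATAA for Asb14 (11.2%), and a CArG box for Asb2 (1.63%). These matches describe letters only.

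Library totals ran from 19274045 to 26820228 counts, and 3 counts, the limit that a count of 0 allows, correspond to 0.114 to 0.148 CPM, the counts of a gene scaled to 1000000 effective reads of its library after TMM (trimmed mean) scaling. High Xist marked all 3 P7 sham libraries and P3 sham library 1, and Y-linked reads marked the other 7, so at P7 this difference and the operation cannot be told apart except through the P3 libraries. In sham hearts this difference also runs in part with age, since P3 sham 2 and P3 sham 3 had Y-linked reads. The P7 PAB libraries also had a steeper fall of level with transcript length (slopes of -0.15 and -0.141, against -0.0291 to 0.0669 elsewhere) and fewer mitochondrial reads (18% to 18.1%, against 21.1% to 22.2% in P7 sham). Between libraries of a group, the chi-square per gene of P3 PAB 3 against the other P3 PAB libraries was 10.8 and 9.51, against 4.27 between those, and that of P7 sham 1 was 11.3 and 12.6, against 5.26 between its partners. The P7 PAB pair differed by 11.3. All 12 cardiomyocyte markers were above 1 CPM in every library, and the skeletal muscle regulators Myod1 and Myf5 were at 0 in all 11. The related regulators Myf6 and Myog reached at most 0.0493 and 0.0986 CPM.

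Per kilobase of exon, the 10 genes formed a high and a low tier. Asb2 (89.4 CPM per kilobase over all libraries), Trim55 (82.8) and Trim63 (62.1) stood on top. Asb11 followed at 14.2, then Trim54 at 9.96, Asb10 at 8.58, Fbxo32 at 7.2, Asb14 at 5.46, Asb15 at 2.78 and Asb18 at 2.6. The ranges over libraries of Asb2 (78.4 to 103) and Trim55 (71.5 to 91.1) overlapped, and so did those of every neighbouring pair from Asb11 down. Trim63 (56.2 to 68.4) lay below the lowest Trim55 library and far above the highest Asb11 library (18.6). By group, Trim55 stood above Asb2 at P3 (86.3 against 81.7 in sham and 88.7 against 87.5 in PAB) and below it at P7. Asb15 was below Asb18 in every group but P7 sham, where it stood at 6.05 against 2.77. Asb2 alone made up 50.6% ± 3.47 (SD, n = 3) of the summed per-length level of the 18 Asb genes in sham and 53.3% ± 1.98 (n = 2) in PAB hearts at P7. Asb15 made up 3.34% ± 0.839 and 0.586% ± 0.0806 there.

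**Figure D1:**
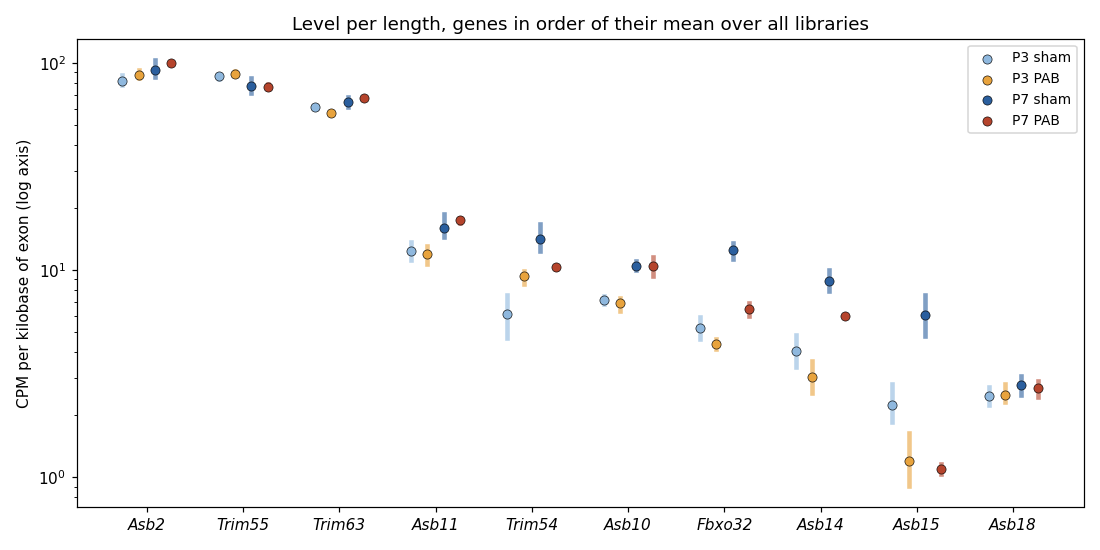
Level per kilobase of exon (CPM per kilobase, log axis) of the 10 genes, with a point for each group mean and a bar from the lowest to the highest library. Asb2, Trim55 and Trim63 lie between 56.2 and 103 in every library, and Asb15 spans the widest range, from 0.905 to 7.6.

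Asb15 (chr6:24528144-24573164, plus strand), whose protein has been linked to muscle growth and differentiation, had 9.19, 8.33 and 12.6 CPM in sham and 4.07, 4.63 and 7.31 CPM in PAB libraries at P3. The P7 libraries had 21.6, 25.8 and 34.2 CPM after sham and 4.63 and 5.22 CPM after PAB. Every P7 PAB library was below every sham library of either age and inside the P3 PAB range. Sham hearts at P7 were thus 2.73-fold above P3 sham hearts (log2 difference 1.45), whereas PAB hearts differed by -0.12 on the log2 scale between the ages. At P7 the PAB level was 5.54-fold below sham (log2 difference -2.47), place 59 from the lowest among 15808 genes tested. These P7 differences are given as a description with no test, because they chose the gene.

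The rule for that choice named the P7 fall only, though earlier results of these data were known. The fit takes its spread from all 11 libraries. At P3 Asb15 was 1.87-fold lower in PAB than in sham hearts, a log2 difference of -0.90 (SE 0.22, 95% interval -1.37 to -0.43), and the libraries did not overlap. Throughout, a gene was called where it changed 1.5-fold or more with an adjusted p no higher than 0.05. The P3 difference of Asb15 was not called (edgeR quasi-likelihood test, Benjamini-Hochberg adjusted p = 0.17). Over 22 alternative settings the difference ranged from -1.20 to -0.71 and the adjusted p from 0.0013 to 0.73, and it was called in 3 of them, those without the filter on low counts (-0.89, adjusted p = 0.04) or with a replicate block. Without P3 PAB 3 it was -1.20 (adjusted p = 0.067).

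**Figure D2:**
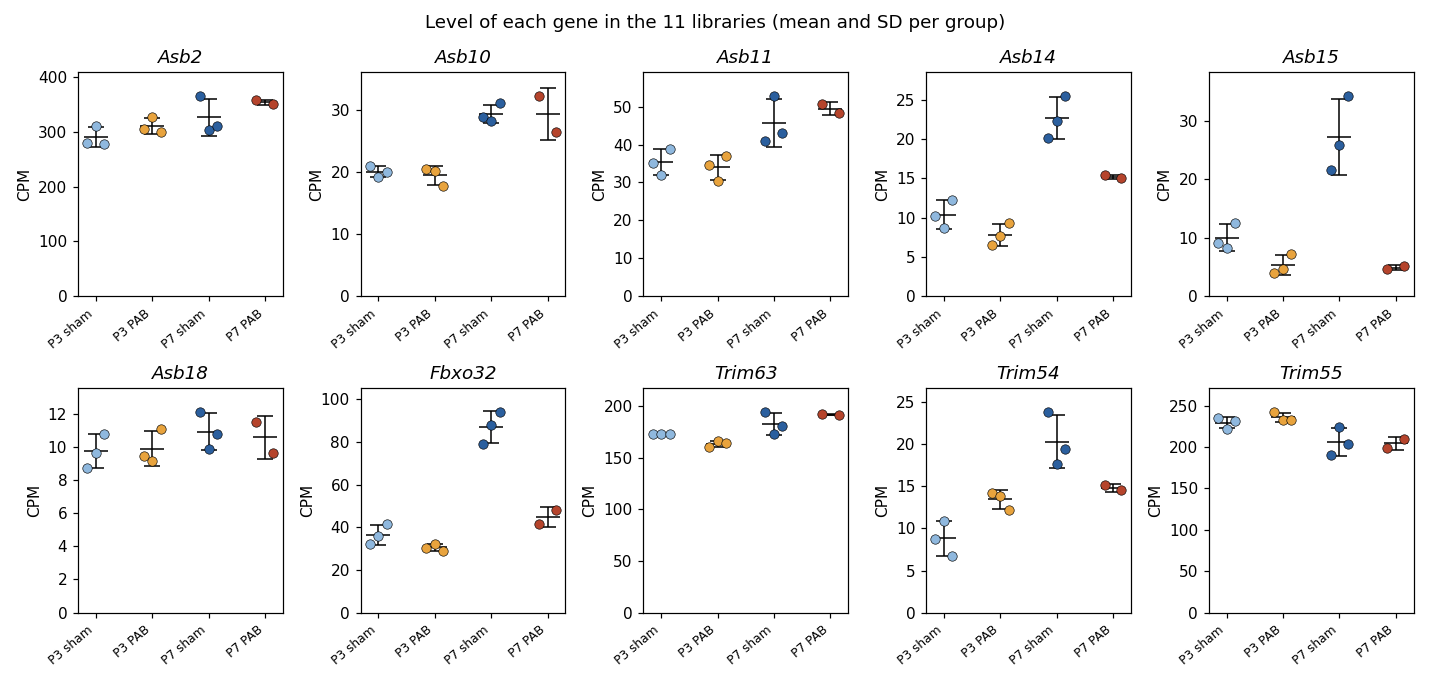
Level (CPM, linear axis from 0) of each gene in all 11 libraries, points by group with the group mean and SD. Asb15 and Fbxo32 stand highest in sham hearts at P7 (21.6 to 34.2 and 79 to 94 CPM) and low in PAB hearts of that age, and Asb2, Trim63 and Trim55 vary least in proportion to their level.

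Asb14 (chr14:26894557-26915258, plus strand), another ankyrin repeat and SOCS box protein, also stood highest in sham hearts at P7. It had 10.2, 8.67 and 12.3 CPM in sham and 6.48, 7.62 and 9.30 CPM in PAB libraries at P3. At P7 it had 20.2, 22.3 and 25.5 CPM after sham and 15.4 and 15 CPM after PAB. The P3 groups overlapped and the P7 groups did not. With age Asb14 rose in both arms, 2.19-fold in sham (log2 1.13 ± 0.13 SE, adjusted p = 2.4e-05) and 1.95-fold in PAB hearts (log2 0.96 ± 0.16, adjusted p = 0.00018). The P7 PAB difference was -0.57 ± 0.15 on the log2 scale (adjusted p = 0.0052), just under the 1.5-fold bound, so it was not called. Without P3 PAB 3, P7 sham 1, P7 sham 2 or P7 PAB 1 it was called, at -0.59, -0.65, -0.59 and -0.59. At P3 it was -0.41 ± 0.15 (adjusted p = 0.42), and the 2 differences were not shown to be unequal (interaction -0.17, 95% interval -0.61 to 0.27).

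Within a library the ratio of Asb15 to Asb14 per length was 0.545 ± 0.034 (SD, n = 3) in sham and 0.382 ± 0.0554 in PAB hearts at P3. The P7 ratios were 0.675 ± 0.078 after sham and 0.184 ± 0.0191 (n = 2) after PAB. The P7 values of this ratio contain the counts that chose Asb15.

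For the other Asb members, 4 genes, the PAB and sham libraries overlapped at both ages. Asb2 (chr12:103321142-103356001, minus strand), which targets filamins in muscle, had 280, 311 and 278 CPM in sham and 304, 326 and 300 CPM in PAB libraries at P3. It had 365, 303 and 311 CPM after sham and 357 and 350 CPM after PAB at P7. Its P7 difference was 0.12 on the log2 scale (95% interval -0.07 to 0.30). Its highest library was 1 of the sham hearts at P7, and the PAB libraries of that age lay inside the sham range.

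Asb10 (chr5:24532697-24540978, minus strand) had 20.9, 19.2 and 20 CPM in sham and 20.5, 20.2 and 17.7 CPM in PAB libraries at P3. The P7 values were 28.8, 28.1 and 31 CPM after sham and 32.2 and 26.4 CPM after PAB. All P7 libraries were above all P3 libraries, and the PAB and sham ranges overlapped at each age (P7 log2 difference 0.00, 95% interval -0.21 to 0.21). The increase with age was 1.51-fold in PAB hearts, which was called (log2 0.59 ± 0.098, adjusted p = 0.00021), and 1.47-fold in sham hearts (log2 0.55 ± 0.088, adjusted p = 0.00028), which was below the fold bound. The call in PAB hearts was lost without P3 PAB 3 (0.51) or P7 PAB 1 (0.44) and when scaled by total counts (0.34). It was also lost with a replicate block (0.58) and with the length trend removed, without the block or with it (0.46 each). The 2 increases were not shown to differ (interaction 0.04, 95% interval -0.24 to 0.32).

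Asb11 (chrX:164436994-164459170, plus strand), which lies on the X chromosome, had 35.2, 32 and 38.8 CPM in sham and 34.6, 30.4 and 36.9 CPM in PAB libraries at P3. At P7 the sham libraries had 40.9, 52.8 and 43.1 CPM and the PAB libraries 50.7 and 48.2 CPM. It was 1.29-fold higher with age in sham (adjusted p = 0.012) and 1.46-fold in PAB hearts (adjusted p = 0.0013), both under the fold bound, although without P3 PAB 3 the latter was called (log2 0.59). Its P7 PAB difference was 0.12 (95% interval -0.12 to 0.36).

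Asb18 (chr1:89950220-90014666, minus strand), a family member of little known function, had 8.76, 9.66 and 10.8 CPM in sham and 9.46, 9.14 and 11.1 CPM in PAB libraries at P3. It had 12.1, 9.86 and 10.8 CPM after sham and 11.5 and 9.66 CPM after PAB at P7. All 4 groups overlapped, and the P7 difference was -0.04 on the log2 scale (95% interval -0.32 to 0.24).

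Fbxo32 (chr15:58175879-58214932, minus strand) was the member with a called PAB difference at P7. Its P3 values were 32.2, 36 and 41.4 CPM after sham and 30.4, 32.4 and 28.9 CPM after PAB. Its P7 values were 79, 88 and 94 CPM after sham and 41.7 and 48.3 CPM after PAB. Sham hearts at P7 were above all others, and P7 PAB hearts lay only just above the highest P3 library. Fbxo32 rose 2.38-fold with age in sham hearts (log2 1.25 ± 0.095 SE, adjusted p = 3.3e-07). In PAB hearts the age difference was 1.47-fold (log2 0.56 ± 0.11, adjusted p = 0.00071), under the fold bound. It was called without P3 PAB 2 (0.60), with a replicate block (0.59) and with the length trend removed (0.69, adjusted p = 1e-04), also with the block (0.72). Without P7 PAB 1 it was 0.66.

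At P7 Fbxo32 was 1.94-fold lower in PAB than in sham hearts (log2 -0.95 ± 0.11, 95% interval -1.18 to -0.72, adjusted p = 8.9e-06). The difference was called in all 22 alternative settings, between -1.22 and -0.77. One of these settings, a term for Xist or Y reads, gave -1.22 (adjusted p = 0.00095), but the term was estimated from P3 sham 1 alone, the only library that differed in this from others of its group. With the trend over transcript length removed the difference was -0.80 (adjusted p = 3e-05). At P3 the difference was -0.26 ± 0.097 (adjusted p = 0.46), and the P7 and P3 differences were unequal (interaction -0.70 ± 0.14, adjusted p = 0.0031). Without P7 sham 1 the P7 difference was -1.02 and the interaction -0.76 (adjusted p = 0.0011), and without P3 PAB 3 they were -0.97 and -0.75 (adjusted p = 0.0054). The gene overlaps the antisense gene Gm15943 over 186 exonic bases. Gm15943 had 7 to 32 counts per library against 711 or more for Fbxo32.

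Trim63 (chr4:134315120-134329629, plus strand), the MuRF ligase best known for degrading thick filament proteins, had 173 CPM in each sham library and 160, 166 and 164 CPM in the PAB libraries at P3. It had 194, 173 and 181 CPM after sham and 192 and 191 CPM after PAB at P7. The P7 groups overlapped, with a log2 difference of 0.06 (95% interval -0.08 to 0.21), and at P3 the PAB libraries lay below sham without overlap by 1.06-fold (adjusted p = 0.79). The ratio of Fbxo32 to Trim63 per length was 0.0861 ± 0.011 (SD, n = 3) in sham and 0.0763 ± 0.00401 in PAB hearts at P3. At P7 it was 0.195 ± 0.0249 after sham and 0.0958 ± 0.0103 (n = 2) after PAB.

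**Figure D3:**
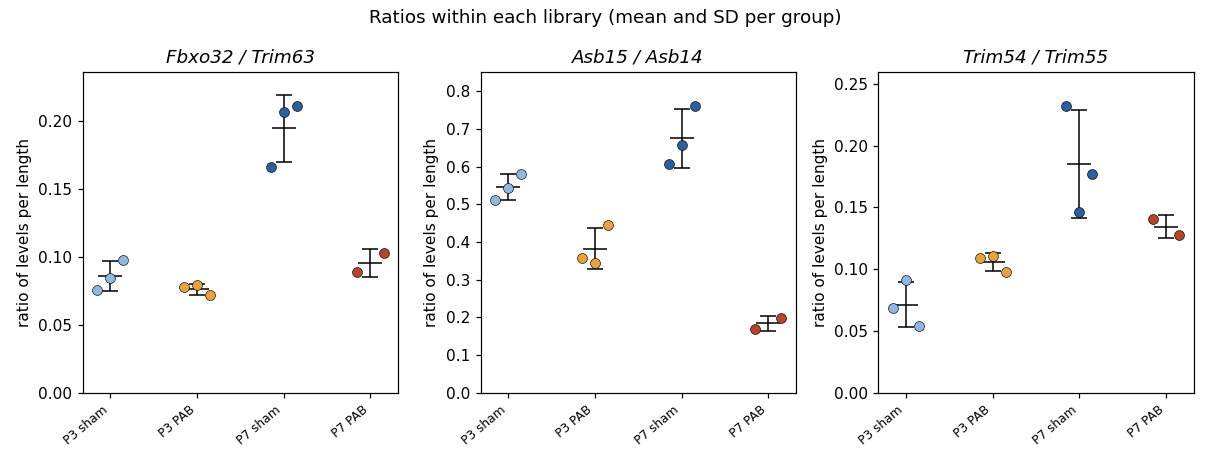
Ratios of per-length levels within each library, with the group mean and SD. The ratio of Fbxo32 to Trim63 is 0.166 to 0.211 in the 3 P7 sham libraries and 0.103 or lower in all others. That of Asb15 to Asb14 is lowest in P7 PAB hearts, and that of Trim54 to Trim55 is 0.0541 to 0.091 in P3 sham and 0.0975 to 0.111 in P3 PAB.

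Trim54 (MuRF3, chr5:31116712-31137630, plus strand), which binds microtubules and the sarcomere, differed between PAB and sham hearts in opposite directions at the 2 ages. Its P3 libraries had 8.76, 10.9 and 6.76 CPM after sham and 14.2, 13.9 and 12.2 CPM after PAB. Its P7 libraries had 23.8, 17.7 and 19.4 CPM after sham and 15.1 and 14.5 CPM after PAB. PAB hearts were above sham hearts at P3 and below them at P7, without overlap at either age. The P3 difference was 0.60 ± 0.15 on the log2 scale (1.52-fold, edgeR adjusted p = 0.17), and the P7 difference was -0.45 ± 0.16 (1.37-fold lower, adjusted p = 0.026), so edgeR called neither, while DESeq2 called the P3 difference (0.61, adjusted p = 0.027). The difference between them passed the test (interaction -1.06 ± 0.21, adjusted p = 0.0027), also without P7 sham 1 (-0.93, adjusted p = 0.0036) or P3 PAB 3 (-1.14, adjusted p = 0.0035). With age Trim54 rose 2.29-fold in sham hearts (log2 1.19 ± 0.14, adjusted p = 2.7e-05), and in PAB hearts its log2 age difference was 0.14 (95% interval -0.20 to 0.47).

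At P7 the Trim54 and Asb14 differences lost the adjusted p threshold with the term for Xist or Y reads, which rests on P3 sham 1 alone (-0.48, adjusted p = 0.25, and -0.61, adjusted p = 0.12). With the length trend removed both were called (-0.79 and -0.77). The Trim54 difference also missed that threshold without P7 sham 1 (-0.33, adjusted p = 0.093), P7 PAB 1 (-0.49, adjusted p = 0.089) or P7 PAB 2 (-0.42, adjusted p = 0.11). Trim54 is the shortest of the 10 transcripts, at 1.436 kilobases of exon. It shares 382 exonic bases with the antisense gene Gm15469, which had at most 11 counts in a library.

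Trim55 (MuRF2, chr3:19644474-19692421, plus strand), which accompanies titin and myosin during sarcomere assembly, had 235, 222 and 231 CPM in sham and 242, 233 and 232 CPM in PAB libraries at P3. At P7 it had 190, 224 and 204 CPM after sham and 199 and 210 CPM after PAB. The PAB and sham libraries overlapped at both ages, and the P7 difference was -0.01 on the log2 scale (95% interval -0.17 to 0.15). In PAB hearts its P7 libraries lay below its P3 libraries without overlap (log2 -0.21 ± 0.077, adjusted p = 0.04), under the fold bound. Over the 11 libraries the Pearson correlation of its log2 CPM with that of Trim63 was -0.925, a description over libraries that share age and operation. The ratio of Trim54 to Trim55 per length was 0.0713 ± 0.0186 (SD, n = 3) in sham and 0.106 ± 0.00729 in PAB hearts at P3. The P7 values of this ratio were 0.185 ± 0.0436 after sham and 0.134 ± 0.00919 (n = 2) after PAB.

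**Figure D4:**
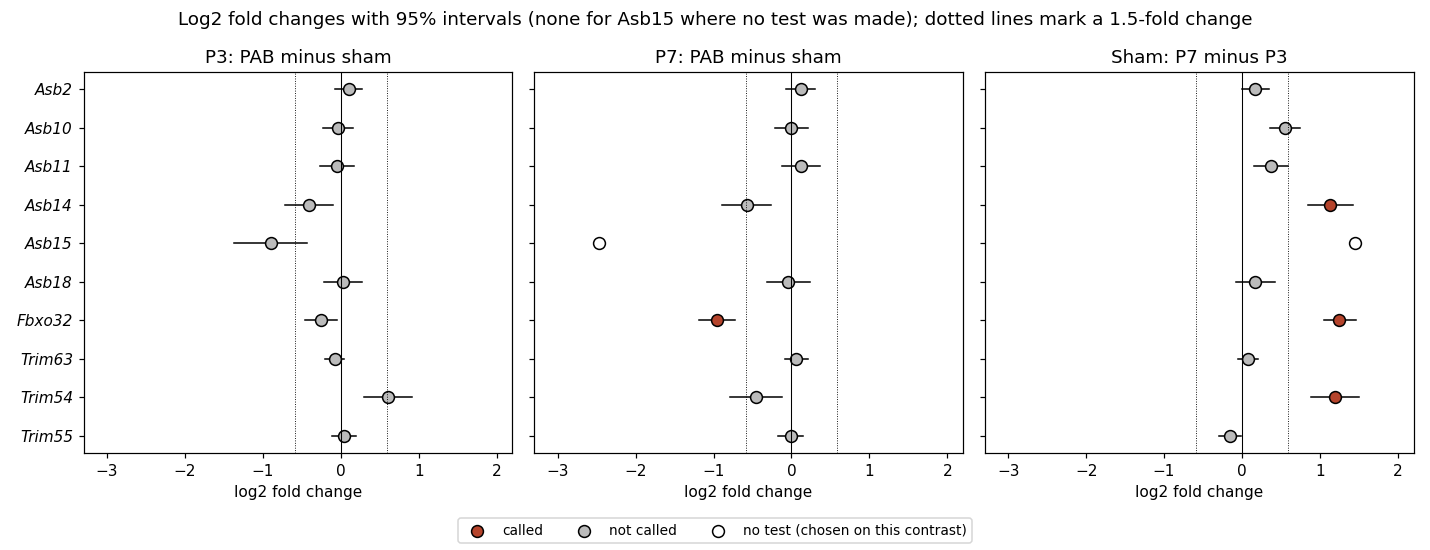
Log2 fold change of each gene in 3 comparisons with its 95% interval, filled red where called, grey where not and white where no test was made. Between P7 PAB and P7 sham the called point is Fbxo32 at -0.95, and between P7 and P3 sham the called points are Fbxo32 (1.25), Trim54 (1.19) and Asb14 (1.13).

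Counted over the list at P3, 0 of 10 members were called by edgeR in either direction, against 0.108% of all 15808 genes called higher and 0.0190% lower. At an unadjusted p under 0.05 with the same fold bound 2 members passed, where 0.955% of all genes passed higher and 0.993% lower, and DESeq2 called 1, Trim54, against 0.177% and 0.0696%. Libraries did not overlap for 1 member higher in PAB (8.65% of all genes) and for 2 lower (8.02%). The median log2 difference was -0.05, against 0 over all genes.

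At P7, 1 of the 9 members other than Asb15 was called lower and 0 higher, against 8.59% and 9.63% of all genes, so the share was near that of all genes. For 3 of the 9, Asb14, Fbxo32 and Trim54, the PAB libraries lay below sham without overlap, against 29.6% of all genes. The median difference of the 9 was -0.01, against 0 over all genes.

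With age in sham hearts, 3 of the 9 were called higher and 0 lower, against 5.62% and 5.73% of all genes. Libraries lay higher without overlap for 6 of 9 (22.4% of all genes), and the median difference was 0.37, against 0. In PAB hearts 2 of 9 were called higher with age and 0 lower, against 9.50% and 8.20%, and 7 of 9 lay higher without overlap (32.0%) and 1, Trim55, lower (30.7%). The median there was 0.23. Scaling by total counts moved the median of all genes by -0.31 in sham and -0.25 in PAB hearts. It also changed the genes called with age in sham hearts from 888 higher and 906 lower to 397 and 2881. With a term for Xist or Y reads, estimated from P3 sham 1 alone, these were 614 and 724. The test of unequal PAB differences called 2 of 9 lower and 0 higher on the adjusted p alone, against 12.6% and 13.3% of all genes. Without P7 PAB 1 the member count was also 2, while the genes so called went from 2106 higher and 1990 lower to 1300 and 1346. The comparisons share groups and are not independent of each other.

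**Figure D5:**
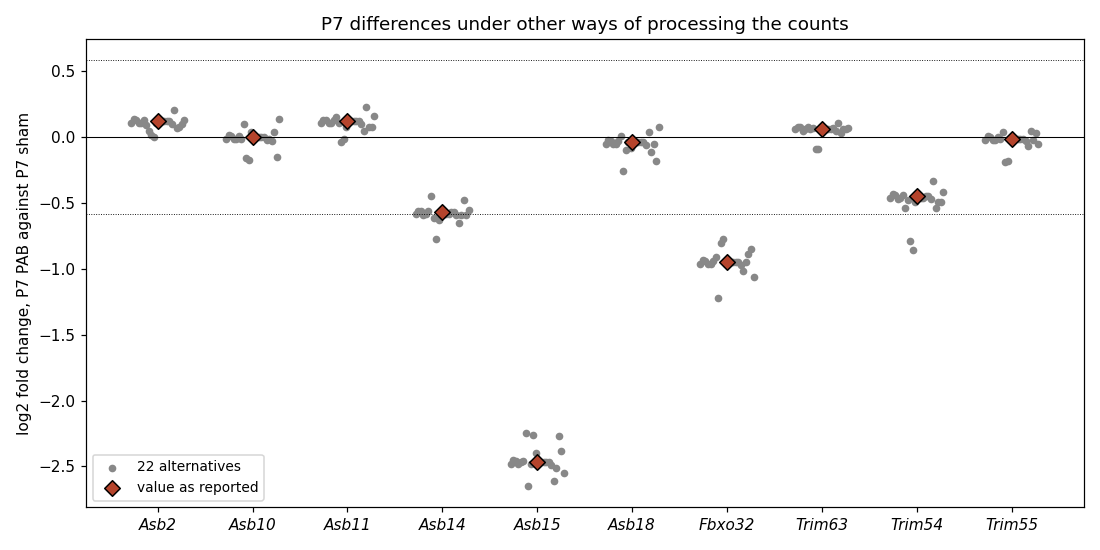
Log2 difference between P7 PAB and P7 sham hearts for each gene as reported (diamond) and under 22 alternative settings (grey points), with dotted lines at a 1.5-fold change. Fbxo32 stays between -1.22 and -0.77 and Asb15 between -2.65 and -2.25, whereas Asb14 (-0.77 to -0.45) and Trim54 (-0.86 to -0.33) straddle the line.

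Of 12 other Asb genes 10 were tested, and 0 were called in either direction at P7 (median log2 difference 0.10), where 9.63% of all genes were called higher and 8.59% lower. At an unadjusted p under 0.05 with no fold bound 3 passed, where 26.2% of all genes passed higher and 25.7% lower, and DESeq2 called 0, against 8.83% and 8.07%. These 3 were Asb6 at 0.56 ± 0.11 (SE, adjusted p = 0.001), Asb5 at 0.53 ± 0.17 (adjusted p = 0.017) and Asb7 at -0.41 ± 0.10 (adjusted p = 0.0045), picked out after their values were seen. With age in PAB hearts 1 of the 10, Asb5, was called higher and 0 lower, against 9.50% and 8.20% of all genes (4.71 against 2.94 CPM, log2 0.68, adjusted p = 0.0041). At P3, 0 genes of this list or of the 5 lists below were called by edgeR, against 0.108% of all genes higher and 0.0190% lower. DESeq2 called 1 gene, among the substrates and partners, against 0.177% and 0.0696%. At an unadjusted p with the fold bound edgeR also passed 1, in the same list, against 0.955% of all genes higher and 0.993% lower.

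The counts of the lists that follow stand against the same 9.63% called higher and 8.59% called lower over all genes, and nothing particular to a list is read from them. Of 15 scaffold and adaptor genes in the table, 2 were called higher after PAB at P7 and 0 lower. They were Nedd8, the modifier that activates cullins (84.6 against 48.5 CPM, log2 0.80, adjusted p = 3.5e-06), and Rbx1, the RING subunit of cullin ligases (82.9 against 47.8 CPM, log2 0.80, adjusted p = 1.9e-05). Among the ubiquitin genes, Rps27a, which encodes ubiquitin fused to a ribosomal protein, was called higher (log2 1.05, adjusted p = 9.8e-07).

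Among 33 other muscle ligases 3 were called lower and 0 higher at P7. Klhl38, a Kelch protein of muscle, had 4.88 against 12.0 CPM (log2 -1.30, adjusted p = 6.7e-05). Mylip, a ligase of lipoprotein receptors, had 5.44 against 11.5 CPM (log2 -1.09, adjusted p = 1.3e-05), and Trim7 had 10.6 against 16.3 CPM (log2 -0.63, adjusted p = 0.0036). The list's median difference was -0.21. With age in sham hearts 4 genes of the list were called higher and 2 lower, against 5.62% and 5.73% of all genes.

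Of 35 tested genes listed as regulators of these ligases or as other genes of the same pathways, 2 were called higher and 2 lower in P7 PAB. Foxo3, a transcription factor that drives Fbxo32 and Trim63 in atrophy, had 37.6 against 61.7 CPM (log2 -0.72, adjusted p = 1.1e-05), and the cell cycle inhibitor Cdkn1b had 38.5 against 58.3 CPM (log2 -0.60, adjusted p = 3.3e-05). Bnip3, a mitophagy receptor, had 160 against 55.5 CPM (log2 1.52, adjusted p = 1.3e-07), and Cdkn1a 84.5 against 50.5 CPM (log2 0.74, adjusted p = 4.9e-05). The median of the list was -0.21.

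Among 31 tested substrates and partners 3 were called higher and 3 lower. Myh7, the fetal myosin heavy chain, rose (1230 against 276 CPM, log2 2.15, adjusted p = 1.3e-05), as did Gnb2l1 (log2 1.00) and Actc1 (log2 0.65). Myh6, the adult isoform, fell (17300 against 31900 CPM, log2 -0.89, adjusted p = 3.9e-06), as did the fatty acid regulator Ppara (log2 -1.11) and Smad9 (log2 -0.63).

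In whole tissue, fewer cells of a type and less RNA per cell cannot be told apart. The summed level of the 12 cardiomyocyte markers was 76600 to 85800 CPM in P7 sham and 68600 to 75000 in P7 PAB hearts, with Ryr2 (log2 -0.90), Myh6 (-0.89) and Atp2a2 (-0.63) called lower and Actc1 (0.65) called higher. Without Myh6, the most abundant of them, the direction turned, and the other 11 summed to 48400 to 51200 CPM after sham and 51900 to 57200 after PAB. The 8 fibroblast markers summed to 6000 to 6070 CPM after sham and 4570 to 5450 after PAB at P7, the 7 endothelial markers to 1470 to 1510 and 1120 to 1230, and the 7 atrial markers to 192 to 241 and 350 to 375. Without Col3a1 the fibroblast sums overlapped, at 3160 to 3300 and 2890 to 3420 CPM. The 7 erythroid genes summed to 2250 to 3040 CPM after sham and 3410 to 3910 after PAB, and the 4 brown fat genes to 136 to 161 and 188 to 191. Of these 4 genes 2 were above 1 CPM, and most of their sum was Cox7a1. Without Cox7a1 the sums were 19 to 24.7 CPM after sham and 37.6 to 41.4 after PAB. Of the smooth muscle genes Cnn1 (log2 2.56) and Tagln (1.19) were called higher, while the sums of that list overlapped, at 844 to 1040 and 1010 to 1150 CPM. The 19 skeletal muscle genes summed to 1560 to 1820 and 1700 to 2060 CPM, most of it Ckm (1540 to 1800 and 1620 to 1940 CPM), a gene the heart expresses too. Myod1 and Myf5 were at 0, and Myf6, Myog and Myh1 at 0.457 CPM or less. Over all libraries Tnni2 stood at 0.838 to 2.3 CPM and Neb at 2.17 to 6.27 CPM. Casq1 stood at 8.21 to 14.4 CPM after sham and 66.1 to 111 after PAB, and Myh8 was called higher (2.48 against 1.32 CPM, log2 0.93, adjusted p = 0.017). The part of these differences in the members' values was not tested.

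Over the 11 libraries the genes whose log2 CPM was most like that of Asb15, among 13507 with a mean of at least 1 CPM, were Lrrn1 (Pearson 0.984), Rbfox1 (0.978), Trdn (0.973), Itih5 (0.971) and Txlnb (0.970). Of the members, Fbxo32 came closest at 0.847 (place 463) and Asb14 next at 0.780 (place 904). These libraries include those that chose Asb15. Among tested genes near Asb15 on chromosome 6, the P7 log2 difference was 0.39 for Ndufa5, -0.11 for Lmod2 and -0.48 for Wasl, and it was 0.08 for Cadps2, which ends further off at position 23839421.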

How the data were processed

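RNA of mouse heart was sequenced in 11 libraries. The authors deposited a table of raw counts per gene, and per the labels the reads were aligned with STAR 2.5.2b to GRCm38. The counting tool and its strand setting are not given in the sources used here. Counts were used as deposited, and 27 rows bear names that a spreadsheet turned into dates.

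Groups came from the sample labels. edgeR 4.0.16 in R 4.3.3 (TMM, filterByExpr, quasi-likelihood test) fitted all 4 groups at once, and Benjamini-Hochberg adjustment ran over the 15808 genes tested of 50600. The interaction had no fold bound. Exon lengths (GENCODE M21, GRCm38) matched 47900 rows by symbol. Named were all members, up to 3 called genes a direction of each list at P7, the 5 genes most like Asb15, and marker genes that bear on a member. DESeq2 1.42.0, other scalings, filters and designs, a length correction (lowess span 0.3), thinning and leaving out each library were the alternatives. The fit was also run on simulated data, and no result here draws on that run. The ubiquitin gene list is reported in part only. The members, lists and alternatives were chosen with earlier results of these data known.

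The fit had no replicate block. Deviations of same-numbered libraries correlated at -0.0998 to 0.144 over 15 pairs, 1 of them over 0.1, so the numbers were not taken to pair the samples. Between P3 sham and P3 PAB the same numbers gave 0.0831, 0.0791 and 0.144, and other numbers -0.0846 to 0.00516.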

Additional observations from a re-analysis of the deposited data

Results flagged for a closer look

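The PAB difference was not the same at P7 as at P3 for a pair of the genes, by the test of the difference itself. For Fbxo32 the P7 difference minus the P3 difference was -0.70 on the log2 scale (edgeR adjusted p = 0.0031), from -0.26 at P3 to -0.95 at P7. For Trim54 it was -1.06 (adjusted p = 0.0027), from 0.60 at P3 to -0.45 at P7. Over all genes this test called 12.6% lower and 13.3% higher. At P7 Xist or Y reads divided the libraries in the same way as the operation. No group had more than 3 libraries, so no member was tested for a single library far from the others of its group.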

How the results depend on the processing

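The count of members called at P3 went from 0 to 2 at an unadjusted p under 0.05 (Asb15 and Trim54), and to 1 without the filter on low counts, with DESeq2 (Trim54, with 28 genes higher and 11 lower over all), with a replicate block (22 and 8), and with the block and the length trend removed (29 and 8). At P7 it went from 1 to 3 without the fold bound, where 3600 of all 15808 genes were called higher and 3491 lower, to 2 with the stricter filter (1182 and 1054 of 12250), and to 3 with the length trend removed, without the block (1010 and 1115) or with it (923 and 1005). Leaving out single libraries gave 1 to 2. The count was 2 (Asb14 added) without P3 PAB 3 (1456 genes higher and 1437 lower over all), P7 sham 1 (1786 and 1531) or P7 sham 2 (1398 and 1219). Without P7 PAB 1, which leaves 1 library in its group, the Asb14 difference was -0.59. With age, the count in sham hearts went from 3 to 5 without the fold bound (2566 genes higher and 2650 lower over all), and in PAB hearts from 2 to 6 without it (3521 and 3354), of which Trim55 was lower, and to 1 when scaled by total counts (645 and 3068). With the block alone the P7 count stayed at 1, and Asb15 at P3 was called (-0.92, adjusted p = 0.0016). With age in PAB hearts the block added Fbxo32 (0.59) and dropped Asb10 (0.58), and it changed no other call of a member. The library numbers were not shown to pair the samples. Over all genes the P3 calls, 17 higher and 3 lower as reported, ranged on the adjusted p from 4 and 0 without P3 PAB 2 to 38 and 11 without the filter, with 8 and 0 without P3 sham 2, 10 and 2 without P3 sham 3, and 9 and 1 without P3 PAB 1, and were 16 and 6 scaled by total counts and 151 and 157 at an unadjusted p. Removing the length trend took the P7 genes called from 1522 higher and 1358 lower to 1010 and 1115, and those with age in PAB hearts from 1501 and 1296 to 996 and 1161 (968 and 1137 with the block). With age in sham hearts 888 and 906 became 586 and 651 with the stricter filter and 397 and 2881 scaled by total counts. The class term (Xist or Y reads), estimated from P3 sham 1 alone, took the unequal differences from 2106 higher and 1990 lower to 1240 and 1051, leaving out P7 PAB 1 to 1300 and 1346, and the block with the length trend removed to 1569 and 1314. Marker sums without their most abundant gene were added after seeing the data. The cause was not tested.

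Signs turned in 60 of 1090 single values, all for genes not called or not tested. By total counts these were, in log2, Asb18 at P3 (-0.02), Trim55 at P3 (0.00), Asb10 (0.02) and Trim55 (0.01) at P7, Asb2 (-0.14), Asb18 (-0.15) and Trim63 (-0.23) with age in sham, Asb2 (-0.06), Asb18 (-0.15), Trim63 (-0.02) and Trim54 (-0.11) with age in PAB hearts, and the Trim55 interaction (0.01). With the class term they were Asb18 at P3 (-0.04), Asb10 (0.10) and Trim55 (0.04) at P7 and the Asb2 interaction (-0.03). At P7 Asb10 and Trim55 gave 0.01 and 0.00 without the filter and with 2 groups only, and Asb10 0.04 when thinned. The block gave 0.01 for Asb18 at P7, 0.11 for Asb15 with age in PAB hearts and -0.01 for the Asb2 interaction. Removing the length trend gave -0.04 for Asb11 and -0.09 for Trim63 at P7, -0.18 for Trim54 with age in PAB hearts, and interactions of -0.06 for Asb2 and -0.10 for Asb10. With the block as well, these were -0.01, -0.09, -0.25, -0.09 and -0.11, and Asb15 with age in PAB hearts was 0.13. Leaving out single libraries, ranges that crossed 0 were at P3 -0.08 to 0.02 for Asb10, -0.12 to 0.02 for Asb11 and -0.06 to 0.10 for Asb18, at P7 -0.15 to 0.14 for Asb10, -0.18 to 0.08 for Asb18 and -0.07 to 0.05 for Trim55, with age in PAB hearts -0.29 to 0.16 for Asb15 and -0.04 to 0.22 for Asb18, and for the interaction -0.11 to 0.18 for Asb10, -0.20 to 0.05 for Asb18, -0.04 to 0.11 for Asb2 and -0.10 to 0.01 for Trim55. No member had fewer than 98 counts in a library, and the 2 libraries of P7 PAB limit what its spread can show.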
